A study of Mus musculus with 2 samples.

Results

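The 34 genes described here encode the proteins that bring fatty acids into the cell and its mitochondria, oxidise them, pass their electrons to the respiratory chain, and make or use ketone bodies. They were picked by symbol, not by a measured value, and all 34 were found among the 43346 gene rows of the deposited tables. The RNA came from the kidney of 1 female C57BL/6J mouse, 10 weeks old, with no treatment named in the labels. It was sequenced as polyadenylated mRNA in 2 libraries, which are called library 1 and library 2 after their technical replicate numbers. Library 2 was made later, per the labels. There was therefore 1 group and no second animal or condition, and the spread between the libraries is technical.

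Long-chain fatty acids are bound, activated to acyl-CoA by the Acsl enzymes and carried across the mitochondrial membranes as carnitine esters. In the matrix, each turn of the beta-oxidation spiral uses an acyl-CoA dehydrogenase, a hydratase, a second dehydrogenase and a thiolase, and the first of these hands its electrons to the flavoprotein made of Etfa and Etfb. Proximal tubule cells are known to depend on this route for energy, and the kidney also burns ketone bodies through Oxct1, which the liver lacks.

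Levels are given as TPM, a measure of transcript abundance in which gene length is divided out and all genes of a library sum to the same total. Library 1 held 28263730 expected counts and library 2 held 20720537, where an expected count is an estimated number of reads. Mitochondrially encoded genes and their nuclear copies accounted for 74.5% of the TPM of library 1 and 36.5% of that of library 2, so the TPM of every other gene was compressed in library 1. The 34 genes together took 0.242% and 0.559% of TPM, or 0.949% and 0.881% when those mitochondrial sequences were set aside. Each pair of values below is library 1 first and library 2 second.

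Of the 34 genes, 31 reached TPM 1 in both libraries. Acad10 (0.98 and 27.7 TPM) and Cpt1b (0.43 and 20.7 TPM) reached it only in library 2, and Cpt1c (0.01 and 0.7 TPM) in neither. The median gene had 32 TPM and 113 TPM, or 126 and 178 with the mitochondrial sequences set aside. The TPM of 30 genes was higher in library 2 and that of 4 (Cd36, Acsl3, Acsl4 and Hadhb) in library 1. With the mitochondrial sequences set aside, the split was 18 and 16, and Ppargc1a (102 and 47.4 TPM) was among the 16. In 10 genes the TPM as deposited, with the mitochondrial sequences included, differed at least 10-fold. Across the 34 genes the order of levels in the libraries had a Spearman rho of 0.60, beside 0.62 over the 13376 genes that reached TPM 1 somewhere. These are correlations across genes, which are not replicates, and the points of each share a library. In bulk tissue, fewer cells of a type and less RNA per cell cannot be told apart.

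**Figure D1:**
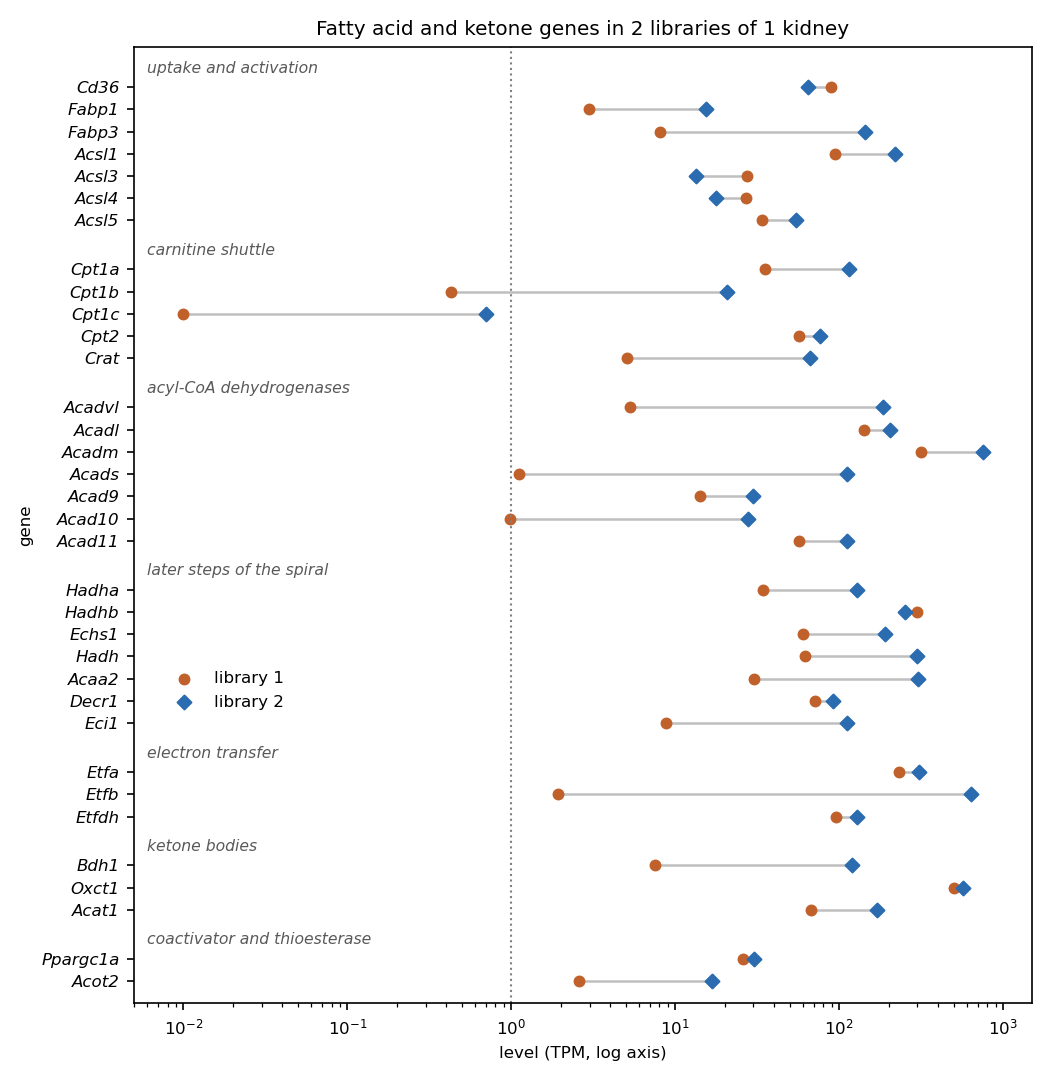
TPM of each gene (log axis) in library 1 (circles) and library 2 (diamonds), grouped by role, with the dotted line at TPM 1. Oxct1 and Acadm sit at the right in both libraries, while Etfb runs from 1.92 to 640 TPM and Acads from 1.11 to 111 TPM.

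Of the genes of uptake and activation, Acsl1 had the highest TPM in both libraries. Cd36, a fatty acid carrier of the cell surface, had 89.5 and 64.9 TPM (77.2 ± 17.4, SD, n = 2 libraries). Acsl1 had 94.7 and 219 TPM and made up 51.7% and 71.9% of the TPM of the 4 Acsl genes, which join coenzyme A to long-chain fatty acids. Acsl5 followed at 33.9 and 54.3 TPM. Acsl3 (27.5 and 13.3 TPM) and Acsl4 (27.1 and 17.7 TPM) came last in both libraries, in opposite order. The deposited TPM bounds of these last genes overlapped in each library. Acsl1 was thus first and Acsl5 next within the family in each. Fabp3, the heart-type fatty acid binding protein, had 8.12 and 144 TPM. Fabp1, the liver-type form, had 2.96 and 15.4 TPM on only 33 and 92 counts. The Fabp3 level was above the Fabp1 level by 2.74-fold in library 1 and by 9.31-fold in library 2.

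In the carnitine shuttle, Cpt1a, the liver-type outer membrane enzyme that commits fatty acids to oxidation, had 35.1 and 114 TPM. It held 98.8% and 84.2% of the TPM of the 3 Cpt1 genes. Cpt1b, the muscle-type form, held 1.21% and 15.3%. Cpt1c, known mainly from neurons, rested on 1 count and 30 counts. Cpt2, the inner membrane partner, had 56.6 and 76.9 TPM, and Crat, which moves acetyl groups between coenzyme A and carnitine, had 5.11 and 65.9 TPM. The Cpt2 level exceeded that of Cpt1a in library 1 (ratio 1.61) and was below it in library 2 (ratio 0.674), so their order differed between the libraries. Of the annotated exon bases of Cpt1b, 81.4% are shared with a readthrough gene on the same strand that is not used here.

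Among the acyl-CoA dehydrogenases, the medium-chain enzyme Acadm was the most abundant in both libraries, at 316 and 759 TPM. It held 59% and 53.2% of the summed TPM of the 7 genes. The long-chain enzyme Acadl came next, at 142 and 203 TPM. The very-long-chain enzyme Acadvl had 5.26 and 184 TPM and the short-chain enzyme Acads 1.11 and 111 TPM. In library 1 that pair lay far below Acadl, while in library 2 all 4 chain-length enzymes stood above 100 TPM. Acad11 had 56.8 and 112 TPM, Acad9, which also serves complex I assembly, had 14.2 and 30 TPM, and Acad10 was the lowest of the family in both. Acad10 matches its neighbour Acad12 at 95.3% identity over 1614 bases, so reads may have been split between them. On the opposite strand, Dvl2 overlaps 42.9% of the exon bases of Acadvl, and had 0.14 and 4.39 TPM. The sources used here do not say how strand entered the counting.

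The later steps of the spiral were at 8.72 TPM or more in library 1 and at 91.7 TPM or more in library 2. Echs1, the short-chain hydratase, had 60.2 and 189 TPM, and Hadh, the short-chain hydroxyacyl-CoA dehydrogenase, had 62.2 and 299.6 TPM. Acaa2, the matrix thiolase, had 30.2 and 301 TPM. Decr1 and Eci1, which handle double bonds of unsaturated fatty acids, had 71.5 and 91.7 TPM and 8.72 and 112 TPM. With the mitochondrial sequences set aside, Decr1 had 281 and 144 TPM and Eci1 34.2 and 176 TPM, so Decr1 was then higher in library 1 and Eci1 higher in library 2.

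Hadha and Hadhb encode the 2 kinds of subunit of the trifunctional protein, which carries out the last 3 steps on long-chain substrates. Hadha had 34.3 and 129 TPM and Hadhb had 297 and 252 TPM, so Hadhb was above Hadha by 8.65-fold in library 1 and by 1.96-fold in library 2. Of the Hadha TPM, 92% and 67.8% lay in a 2554-base transcript annotated as a processed transcript and not as coding. The 4020-base Hadha transcript, annotated as coding, had 2.11 and 34.3 TPM. The genes lie head to head on chromosome 5, Hadha at chr5:30118304-30155162 on the minus strand and Hadhb at chr5:30155248-30184593 on the plus strand (mm10). The stretch between their annotated starts is shown because it is all the DNA that separates them, 85 bases with 69.4% GC, chr5:30155163-30155247, read on the plus strand.
Hadha to Hadhb: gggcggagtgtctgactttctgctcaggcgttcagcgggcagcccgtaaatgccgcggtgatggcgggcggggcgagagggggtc
Hadhb also has a processed pseudogene, Gm13910, with 99.8% identity over 1428 bases, which was assigned 2.47 and 4.51 TPM.

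In library 1, the partners of electron transfer had the widest ratio of levels among the pairs compared here; in library 2, Fabp3 with Fabp1 did. Etfa and Etfb encode the subunits of 1 heterodimer. Etfa had 232 and 307 TPM, on 8570 and 6035 counts. Etfb had 1.92 and 640 TPM, on 38 and 7111 counts. Of its exon bases, 53% are shared with a readthrough gene, Gm45233, on the same strand, which is not used here. The level of Etfa was 121 times that of Etfb in library 1 and 0.479 times that of Etfb in library 2, so the order of the subunits was opposite. Etfdh, the membrane oxidoreductase that passes the electrons to ubiquinone, had 95.3 and 129 TPM. With the mitochondrial sequences set aside, Etfa (909.7 and 483 TPM) and Etfdh (374 and 204 TPM) were higher in library 1 and Etfb (7.54 and 1008 TPM) in library 2.

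The coding sequences of the pair differ in base composition. The Etfa coding sequence has 45.4% GC, with G or C as the last base of 33.3% of its codons, and that of Etfb has 57.5% and 69.4%. The middle 20 codons of each, from the GENCODE M21 transcripts on GRCm38, show this, with the last base of every codon in capitals. They are codons 157 to 176 of Etfa (chr9:55487434-55487493, minus strand) and codons 118 to 137 of Etfb (chr7:43452934-43454553, plus strand, across an intron).
Etfa: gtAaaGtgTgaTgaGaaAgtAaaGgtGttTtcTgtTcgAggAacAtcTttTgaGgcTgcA
Etfb: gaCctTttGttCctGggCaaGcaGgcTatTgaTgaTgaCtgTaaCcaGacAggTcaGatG
In these stretches 5 of the 20 capitals are G or C in Etfa and 12 of 20 in Etfb.

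Of the ketone body genes, Oxct1 was the most abundant, at 504 and 573 TPM. It encodes the enzyme that activates acetoacetate for oxidation, was first of the 34 genes in library 1 and the third in library 2, and had the largest number of counts of any of them (43608 and 31359). Acat1, the mitochondrial thiolase that acts at the end of ketone use, had 67.6 and 169 TPM. Bdh1, the hydroxybutyrate dehydrogenase of the inner membrane, had 7.48 and 119.6 TPM. The order Oxct1, Acat1, Bdh1 was the same in both libraries, with an Oxct1 to Bdh1 ratio of 67.4 and of 4.8.

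Ppargc1a, a transcriptional coactivator of mitochondrial genes, had 25.9 and 30.1 TPM. Acot2, a matrix thioesterase that frees fatty acids from coenzyme A, had 2.57 and 16.7 TPM. Acot2 matches its cytosolic neighbour Acot1 at 95.1% identity over 1274 bases, and Acot1 had 15.1 and 83.5 TPM, so the split of reads between them is uncertain.

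Transcripts of a gene were also quantified separately. The transcript with the highest TPM was the same in both libraries for 26 genes and differed for 8 (Acad10, Acads, Acsl3, Bdh1, Cpt2, Crat, Echs1 and Hadhb). In library 1, 6 genes had at least 10% of their TPM in transcripts shorter than 1000 bases although a longer one is annotated, against 1 gene, Crat, in library 2. A 634-base Cpt2 transcript with a retained intron had 42.2 and 1.59 TPM, which was 74.4% and 2.07% of the gene. A 425-base Hadhb transcript with a retained intron had 155 and 1.27 TPM. For Echs1, an 803-base transcript had 38.5 TPM in library 1 and was listed at 0 in library 2. The same held for a 480-base Oxct1 transcript (87.4 TPM in library 1) and a 502-base Acsl3 transcript (16.4 TPM). The 532-base and 960-base Acads transcripts rested on 9.06 and 4.82 counts in library 1.

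**Figure D2:**
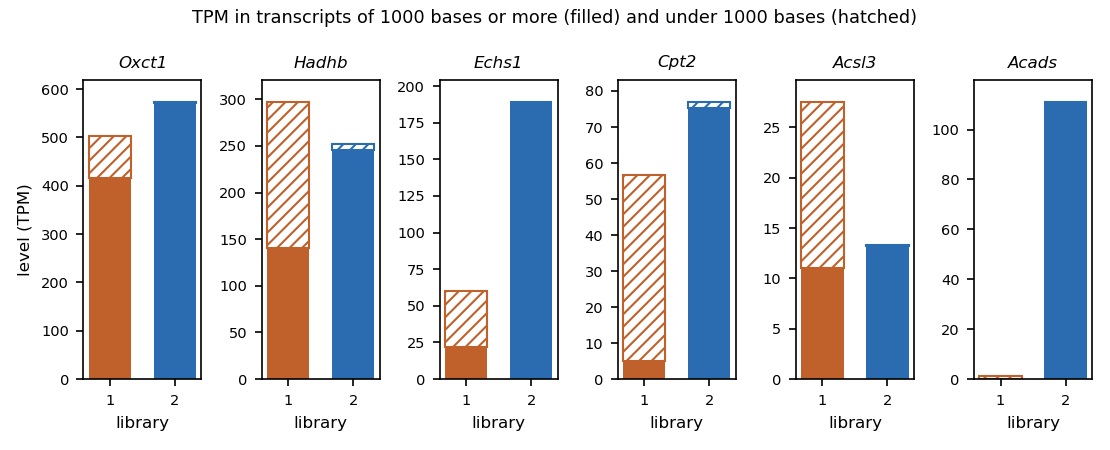
Level in TPM of 6 genes in each library, split into transcripts of 1000 bases or more (filled) and shorter ones (hatched); each panel has its own vertical axis from 0. The hatched share is large only in library 1, where Cpt2 had 90.9% and Hadhb 52.7% of its TPM in short transcripts.

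With the short transcripts left out, Cpt2 stood at 5.15 and 75.3 TPM, and the ratio of Cpt2 to Cpt1a was 0.147 and 0.66, so Cpt1a was then the higher in both libraries. The Hadhb to Hadha ratio became 4.12 and 2.02. Hadhb stood at 141 and 246 TPM, Echs1 at 21.7 and 189 TPM, and Oxct1 at 416 and 571 TPM. Acads stood at 0.04 and 111 TPM, which made it, and not Acad10, the lowest dehydrogenase in library 1. Acsl3 stood at 11 and 13.2 TPM, so without its short transcript it was no longer higher in library 1 by TPM. It was then below Acsl4 (26.8 and 17.7 TPM) in both libraries. With the short transcripts left out, the log2 ratio of TMM-scaled counts of library 2 over library 1 was 2.82 for Cpt2 in place of 0.87, 1.73 for Echs1 in place of 0.90 and 9.85 for Acads in place of 7.09. This alternative was chosen after seeing the data.

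For 5 of these genes the most abundant short transcript could be placed on the leading coding transcript of 1000 bases or more. In 4 of them, the only ones where the rest was computed, the part it covers had a lower GC content than the rest. For Cpt2 it was 46.8% against 54.6%, for Acsl3 32.5% against 45.3%, for Oxct1 40.6% against 48.7% and for Hadhb 42.8% against 46.1%. A second short Cpt2 transcript, of 876 bases with 9.33 and 0 TPM, lies within the coding one. It had 53.3% GC, against 52.6% for the whole coding transcript. The 532-base Acads transcript, on 9.06 counts in library 1, had 59.2% GC. This was also below the 60.1% of the 1870-base coding one that contains all of it, whose rest was not computed. Whether base composition had a part in how reads were shared among transcripts was not tested.

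**Figure D3:**
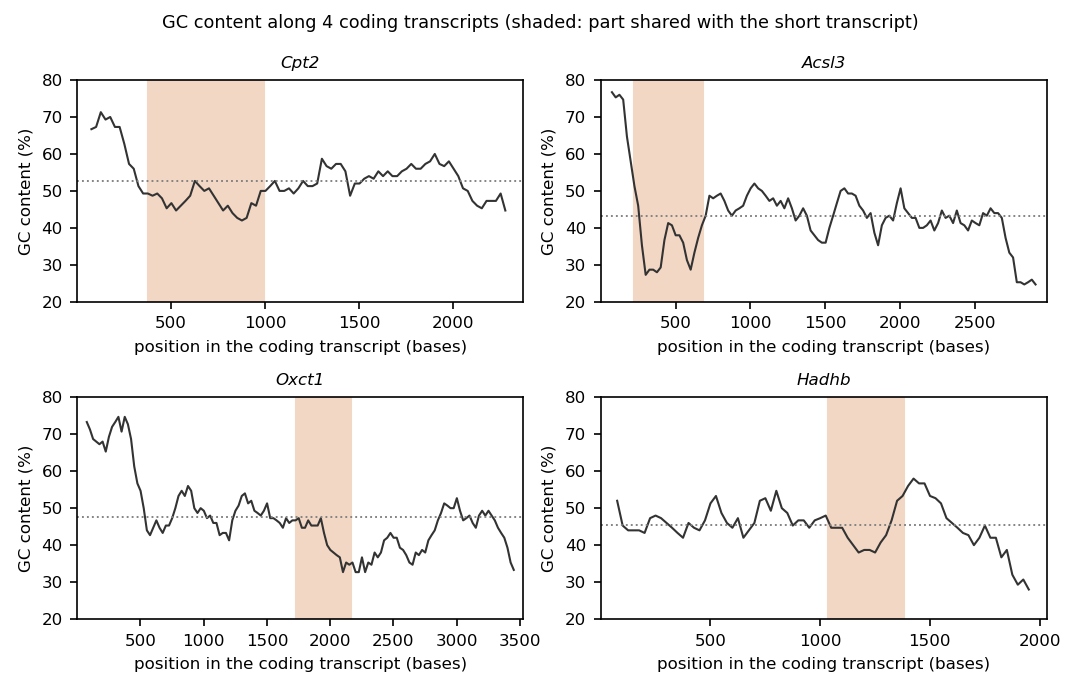
GC content in windows of 150 bases (moved by 25) along a coding transcript of Cpt2, Acsl3, Oxct1 and Hadhb, with position in bases on the horizontal axis. Shading marks the part shared with the most abundant short transcript and the dotted line the GC content of the whole transcript. The shaded part averages 46.8%, 32.5%, 40.6% and 42.8%.

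Longer transcripts differed too. For Bdh1, a 1711-base transcript was listed at 0 in library 1 and had 90.1 TPM in library 2, while the 3122-base one had 7.48 and 29.4 TPM. For Crat, a 3833-base transcript was listed at 0 and had 44.9 TPM, and a 2160-base one had 4.51 and 1.19 TPM. Etfdh kept its leading transcript, but a 2233-base one had 33.7 and 1.14 TPM. A 2698-base Ppargc1a transcript annotated for nonsense-mediated decay had 0.51 and 6.55 TPM.

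To compare the libraries gene by gene, expected counts were scaled by TMM, a trimmed mean of the log ratios of all genes, and a gene was called where the ratio of library 2 to library 1 was 2-fold or more either way. With 1 library on each side no test was possible and no p-value is given. The 95% intervals are exact and cover counting error only. Of the 34 genes, 13 were called higher in library 2, against a background of 36.9% of the 15553 genes compared. Another 4 were called higher in library 1, against a background of 26.1%. The median log2 ratio was 0.50 for the 34 genes and 0.12 for all. The share called higher in library 2 was close to the background, at 38.2%, and the share called higher in library 1, at 11.8%, was below it.

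The widest ratios belonged to Acads, with 16 and 3064 counts and a log2 ratio of 7.09 (interval 6.42 to 7.93), and to Etfb, at 7.08 (6.63 to 7.59). Cpt1b had 36 and 863 counts and a log2 ratio of 4.11 (3.65 to 4.65). Cpt1c, with its single count in library 1, had 3.97 with the wide interval of 1.86 to 9.80. Acadvl (3.78), Acad10 (3.73), Fabp3 (2.78), Crat (2.73) and Eci1 (2.32) followed on the same log2 scale. Bdh1 (1.98), Acaa2 (1.96), Acot2 (1.34) and Fabp1 (1.01) completed the 13. For Fabp1 the interval of 0.44 to 1.64 spans the fold used. On the other side were Acsl4, with 3980 and 1396 counts and a log2 ratio of -1.97, Cd36 (-1.82), Acsl3 (-1.39) and Ppargc1a (-1.33). Decr1, with 6070 and 4170 counts (interval -1.05 to -0.94), lay just short of the fold. The ratio closest to 0 was that of Acat1, at -0.10, with Acadm next at -0.12. Acadm thus combined a high level with a small difference on this scaling.

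These calls depended on the scaling. With total counts, 18 of the 34 genes were called higher in library 2 (background 50.3%) and 1, Acsl4 at -1.06, in library 1 (background 5.45%). The median log2 ratio was then 1.40 for the 34 genes and 1.02 for all. With DESeq2 size factors 6 genes were called higher in library 1, Decr1 (-1.04) and Etfa among them. The sign of 9 uncalled genes (Acad11, Acad9, Acadl, Acadm, Acat1, Acsl1, Acsl5, Etfdh and Hadhb) turned with total counts.

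The ratio ran with GC content. Across the 33 genes with a GC value, taken from their most abundant transcript that has one, Spearman's rho between GC content and the log2 ratio was 0.94, and it was 0.91 over 11508 genes with at least 100 counts. These are again descriptions across genes that share both libraries. The 5 genes under 45% GC (Acsl3, Acsl4, Cd36, Decr1 and Ppargc1a) had a median log2 ratio of -1.39, and all genes of that class -1.47. The 11 genes between 45 and 50% had a median of -0.40, against -0.50 for all genes of the class. The 12 genes between 50 and 55% had 1.65 against 1.05. The 5 genes at 55% or more (Acad10, Acads, Cpt1c, Crat and Etfb) had 3.97 against 3.79. All 5 were called higher in library 2, as were 94.5% of all genes in that class. The partners Etfa (45 to 50%) and Etfb (57.1%) fell in different classes. The GC value of Acsl3 (33.5%) is that of its 502-base transcript and the value of Cd36 (38.4%) that of its 3399-base one, which held 20.3% and 16.9% of the gene. A value for Acsl5 was not used here.

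**Figure D4:**
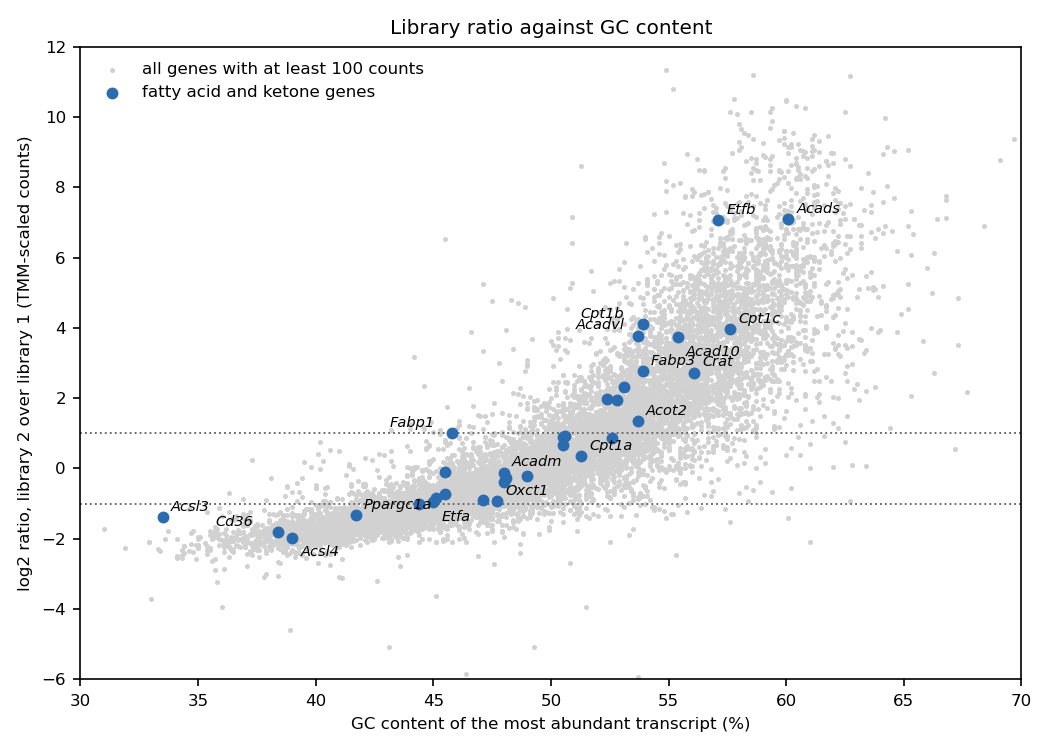
Log2 ratio of library 2 over library 1 (TMM-scaled counts) against the GC content of each gene's most abundant transcript with a GC value, for the fatty acid and ketone genes (large points, some named) and all genes with at least 100 counts (small points); the dotted lines mark the 2-fold limits, and genes beyond the axes are not drawn. The large points rise with GC content as the band of all genes does, from Acsl4 at 39.0% GC and -1.97 to Acads at 60.1% GC and 7.09. Against the trend over all genes, 7 lie 2-fold or more above it (background 14.6%) and 0 as far below it (background 13.1%).

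When the trend with GC over all genes was subtracted, the standard deviation of the log2 ratios of the 33 genes went from 2.34 to 0.93. Then 7 genes were called higher in library 2 (background 14.6% of 14801 genes) and 0 in library 1 (background 13.1%). The 7 were Etfb (3.54), Cpt1b (2.38), Acads (2.13), Acadvl (2.13), Fabp1 (1.88), Acad10 (1.10) and Fabp3 (1.02). Etfa stood at 0.03 and Acadm at 0.25 on this scale. The 4 genes called higher in library 1 moved to between -0.16 (Acsl4) and 0.89 (Acsl3), and Cd36 to 0.04. The Acsl3 value used the 33.5% GC of its 502-base transcript, while its 2976-base one has 43.3%. The Crat ratio went from 2.73 to -0.30 and the Acot2 ratio from 1.34 to -0.29. No ratio was tested, so the 7 are a description of these libraries.

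**Figure D5:**
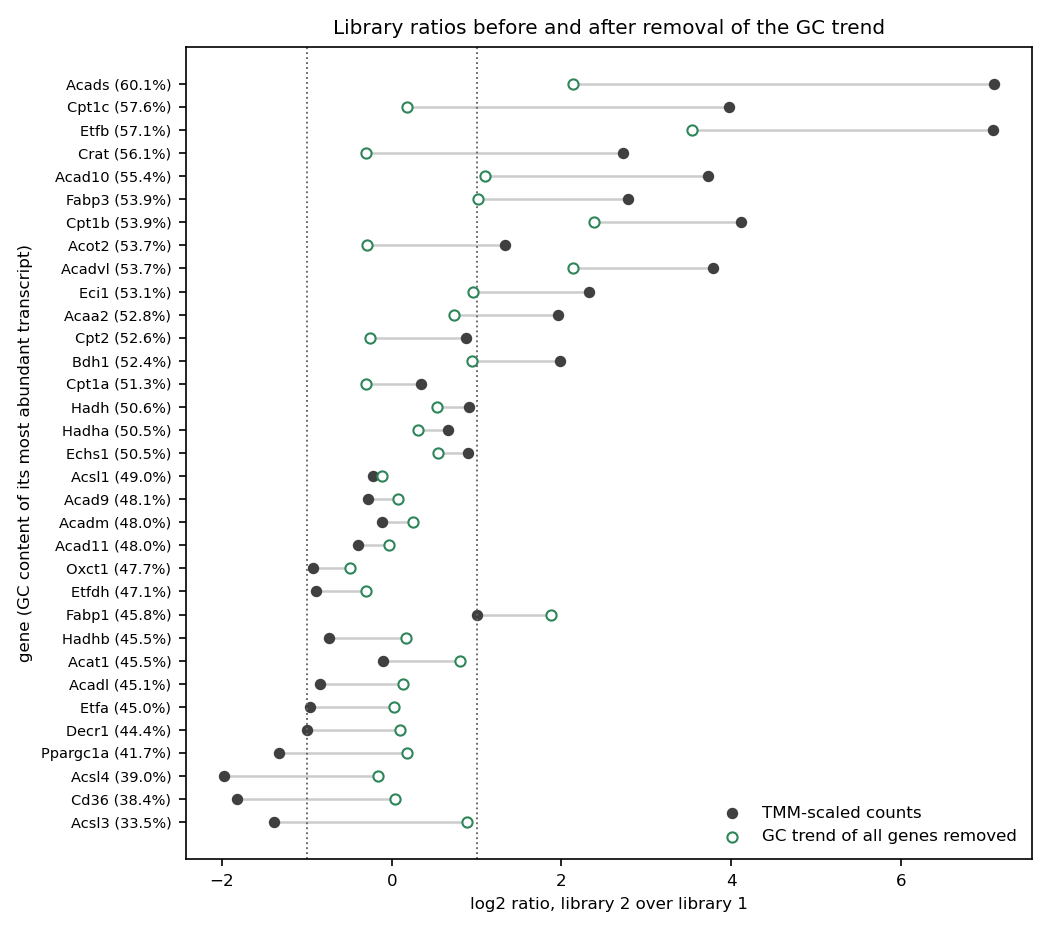
Log2 ratio of library 2 over library 1 for 33 genes, ordered by GC content, before (filled) and after (open) the trend with GC over all genes was removed; the dotted lines mark the 2-fold limits. The open points lie between -0.49 (Oxct1) and 3.54 (Etfb), and those past a limit are all on the right.

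Promoters were read from the RefSeq table on GRCm38.p6, which matched 28 of the 34 genes; Acaa2, Acad9, Acat1, Cpt1b, Crat and Decr1 had no entry. The 250 bases before each start were searched on both strands for DR1, 2 copies of AGGTCA with 1 base between them and up to 2 mismatches, a motif of PPAR with RXR and of other nuclear receptors. It was found in 4 of 28 genes (14.3%) and in 3.72% of 27025 genes in the table. The exact motif TCAAGGTCA of estrogen-related receptors, which overlaps a DR1 copy in its letters, was in 0 of 28 genes and in 0.422% of all. The 4 matches are shown with the motif in capitals on the strand of the gene, since PPAR proteins are known regulators of this pathway. They lie at chr5:17835939-17835967 (Cd36, minus strand), chr7:140116484-140116512 (Echs1, minus), chr9:55512300-55512328 (Etfa, minus) and chr6:71199804-71199832 (Fabp1, plus).
Cd36: tggttctcTGGCCTCTGACTTacttggat
Echs1: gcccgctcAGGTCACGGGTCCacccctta
Etfa: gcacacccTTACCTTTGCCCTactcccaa
Fabp1: acaatcacTGACCTATGGCCTatatctga
The Fabp1 match has 1 mismatch and the others 2 each, and the Echs1 match alone is on the strand of its gene. The Cd36 window precedes a start that lies inside the annotated gene. A match is a run of letters, and binding was not measured. Among these genes Fabp1 had low levels (2.96 and 15.4 TPM) and Etfa high ones.

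Genes that work beside the 34 were taken as lists. Counts of calls in them stand beside the same background, 36.9% of all genes higher in library 2 and 26.1% in library 1. Of the carnitine supply genes, 4 of 5 found reached TPM 1 in both libraries, and Crot, the peroxisomal carnitine transferase, had 133 and 126 TPM. Aldh9a1 had 58 and 157 TPM, and the carnitine transporter Slc22a5 42 and 116 TPM. None of the 5 was called higher in library 2 and 1, Crot, was called higher in library 1. Of the partners in ketone metabolism, Bdh2 had 16.6 and 211 TPM and the ketone carrier Slc16a7 82.7 and 64.8 TPM. The TPM of Oxct1 was above both of these in each library.

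Of 11 other acyl-CoA synthetases, 2 reached TPM 1 in both libraries. Only 8 had enough counts to be compared, and 6 of these 8 were called higher in library 2, beside 36.9% of all genes compared. Among the 6, Slc27a3 (0 and 100 counts) and Acsbg1 (0 and 15 counts) had no counts in library 1. Those 6 had 54.5 to 60.8% GC. With the GC trend removed, Slc27a3 (2.17), Acsbg1 (2.16), Acsf3 (2.08) and Slc27a4 (1.79) stayed past the fold, and Slc27a1 (0.38) and Acsf2 (-0.87) did not. Slc27a2, a very-long-chain synthetase of kidney and liver, had 457 and 1511 TPM, above every one of the 34 genes in library 2 and below Oxct1 in library 1. Acsf3 (0.18 and 34 TPM) and Acsf2 (3.09 and 19.1 TPM) came next by mean TPM. In library 1 Acsf2 was above Acsf3. In library 2 Slc27a1 (21.6 TPM) and Slc27a4 (21.4 TPM) lay between them. Among 8 other fatty acid binding proteins, Fabp4 was the highest, at 23 and 72.7 TPM, followed by Fabp7 (11.4 and 17.5 TPM) and Fabp5 (1.85 and 16.4 TPM). Of these 8, 4 were compared, and 1 was called each way. Among 5 other acyl-CoA dehydrogenases, most of which act on amino acid carbon chains and related substrates, Gcdh had 75.3 and 204 TPM, Ivd 23.9 and 172 TPM, and Acadsb 87.7 and 81 TPM. Of those 5, 2 were called higher in library 2 and 1 in library 1. Of 12 other enzymes of acyl-CoA metabolism, 10 reached TPM 1 in both, and 5 were called higher in library 2 and 3 in library 1. By mean over the libraries, the highest of them were Pccb (31.3 and 192 TPM), Mut (94.7 and 107 TPM) and Hsd17b10 (34.3 and 147 TPM). Of 13 other thioesterases, 11 were compared, and 4 of these were called higher in library 2 and 2 in library 1. Acot13 was highest in both libraries at 86.5 and 262 TPM, ahead of Acot1 and Acot12 (34.8 and 48.4 TPM).

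Of 14 regulators, 8 reached TPM 1 in both libraries and the other 6 only in library 2. Esrra, an estrogen-related receptor that pairs with Ppargc1a, had 0.03 and 72.9 TPM on 2 and 2338 counts, with a log2 ratio of 9.46 (7.88 to 12.78). Sirt3, the mitochondrial deacetylase, had 0.34 and 74.3 TPM, and Tfam 47.7 and 30 TPM. Ppara, the fatty acid receptor, had 4.85 and 25.2 TPM. In all, 7 regulators were called higher in library 2 and 3 in library 1, beside 36.9% and 26.1% of all genes. The 7 had 55.4 to 61.8% GC, a class in which 94.5% of all genes were called higher in library 2, and the 3 had 37.6 to 43.4%. With the GC trend removed, Esrra (3.77), Sirt3 (3.58) and Ppard (2.09) stayed past the fold. Rxra (-0.05), Pprc1 (-0.22), Ppargc1b (-0.52) and Esrrb (-0.92) did not, nor did Tfam (0.11), Sirt1 (-0.18) and Esrrg (-0.32) of the 3. Of the PPAR targets outside the 34, Cyp4a14 had 273 and 459.6 TPM, Cyp4a10 had 265 and 434 TPM and Ehhadh had 164 and 350.3 TPM. Of 8 genes of fatty acid synthesis, 2 were called each way, with Scd1 at 125 and 164 TPM, Me1 at 93.2 and 138 TPM and Acly at 13 and 63.1 TPM.

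Markers of the tissue were present. All 7 proximal tubule markers reached TPM 1 in both libraries, from 6.67 to 128 TPM in library 1 and from 69.6 to 2196 TPM in library 2. All 4 thick ascending limb markers and all 6 endothelial markers did too, as did 5 of 6 of the distal tubule and collecting duct. Those 3 lists summed to 1001 and 3941 TPM, 95.2 and 307 TPM, and 215 and 779 TPM. Of 7 fat cell markers, 3 reached TPM 1 in both, with a summed level of 40.6 and 132 TPM, most of it Fabp4 and Car3. Adipoq, which defines fat cells, had 1.56 and 5.02 TPM. The 5 macrophage markers summed to 2.33 and 54.5 TPM, the 7 striated muscle markers to 0.76 and 2.82, the 5 liver markers to 9.27 and 61.7 and the 5 neuronal markers to 0.23 and 3.04. The 5 red blood cell markers summed to 43.1 and 2408 TPM, and all 5, with 50.8 to 57.2% GC, were called higher in library 2, beside 36.9% of all genes. With the GC trend removed, their log2 ratios were 4.70 (Hbb-bt), 4.39 (Hba-a1), 2.61 (Hbb-bs), 1.76 (Hba-a2) and -0.04 (Alas2). The part of other cells in the levels of Cd36, Fabp3 or Cpt1b was not tested.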

How the data were processed

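The members and gene lists were chosen with earlier results of these data known. Per the file headers, the authors deposited expected counts and posterior mean counts per gene and transcript without normalization, TPM and FPKM scaled per library, the percent of each transcript in its gene, and lengths and interval bounds of TPM (signal values). The build was mm10 with annotation release M4, per the text deposited with the tables; the sources used here name no aligner or counting tool. Per the labels, an RNeasy kit for lipid-rich tissue was used. No columns of other samples were used.

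Symbols, coordinates, transcript sequences and overlaps came from GENCODE M21, joined by ID. Expected counts were rounded and scaled with TMM (edgeR 4.0.16, R 4.3.3). Log2 ratios used a prior count of 0.5 and genes with 10 or more counts summed over the libraries. With 1 library on each side the quasi-likelihood test could not be fitted. The trend with GC came from a lowess fit (statsmodels 0.14.6, span 20%) over genes with at least 100 counts. Near-identical copies were found with blastn 2.17.0 (at least 95% identity over 200 bases). The ratio step was tested on simulated counts.

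Named genes were all members and, of each partner list, the 3 highest by mean TPM. Transcripts were named only where they held at least 10% of a member's TPM in either library. Not all such transcripts were named. Ppara, some other regulators and acyl-CoA synthetases, and single marker or overlapping genes were named beyond the rule, with their values seen. Some results of the partner lists are not reported here. Alternatives were DESeq2 1.42.0 size factors, total counts with and without mitochondrial sequences, other count minimums, priors and folds, posterior means, FPKM, and short transcripts left out, the last added after seeing the data.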

Additional observations from a re-analysis of the deposited data

How the results depend on the processing

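The number of genes called higher in library 2 (13) was 7 with the GC trend removed and between 9 and 18 under the other settings. The number called higher in library 1 (4) was 1 with total counts, 0 with the GC trend removed, 11 at a fold of 1.5 and 0 at a fold of 4. The median log2 ratio (0.50) was 1.40 with total counts, 0.74 with total counts without mitochondrial sequences, 0.33 with at least 100 counts and 0.18 with the GC trend removed. The rank agreement (0.60) was 0.49 over the 31 genes at TPM 1 or more in both. With the GC trend removed, 7 of the 17 calls were kept, 5 passed under the fold and 5 took the other sign: Acot2 (-0.29), Acsl3 (0.89), Cd36 (0.04), Crat (-0.30) and Ppargc1a (0.18). The cause of these changes was not tested. The Acsl3 value used the GC content of its 502-base transcript. DESeq2 size factors kept 16 of the 17 calls, lost Fabp1 (0.98) and added 2 in library 1, Decr1 (-1.04) and Etfa, for 6 in all. Without short transcripts all 17 calls were kept and 2 added, Cpt2 (2.82) and Echs1 (1.73). Leaving out a library gave 31 to 33 genes at TPM 1 or more and no ratio. No paired analysis was possible because there was 1 group of 2 technical libraries. The genes with fewest counts in library 1, and so the least precise there, were Cpt1c (1 count), Acads (16), Fabp1 (33), Cpt1b (36), Etfb (38) and Acad10 (78).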
